A study of Mus musculus with 16 samples.

Results

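The 10 genes described here encode G proteins, cyclases and kinase subunits that carry hormone signals in the heart muscle cell: the G protein alpha subunits Gnas, Gnai2, Gnai3 and Gnaq, the adenylyl cyclases Adcy5 and Adcy6, the catalytic subunits Prkaca and Prkacb of protein kinase A (PKA), and its regulatory subunits Prkar1a and Prkar2a. They were chosen by name from the deposited gene table, each symbol matched exactly 1 row, and they make up 10 of its 35682 genes. RNA came from ventricular myocytes, freed by Langendorff perfusion and plated briefly, of 16 mice, 8 wild-type (WT) and 8 littermates carrying B3AR-Tg, a transgene named for the beta-3 adrenergic receptor. All 16 had undergone transverse aortic constriction (TAC), a narrowing of the aorta that loads the left ventricle with pressure, 9 weeks earlier, so no unloaded animal was compared. The labels give neither the age of the mice nor the promoter and species of the transgene.

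When a beta-adrenergic receptor is activated, Gs (encoded by Gnas) switches on adenylyl cyclase, which makes cAMP, and Gi (Gnai2, Gnai3) opposes it. Beta-3 receptors are known to couple to Gi as well as Gs, whereas Gq (Gnaq) serves alpha-1 adrenergic and angiotensin receptors through phospholipase C. Adcy5 and Adcy6 are the main cyclases of the cardiomyocyte, and cAMP releases the PKA catalytic subunits from their regulatory subunits so that they can phosphorylate channels and contractile proteins.

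Library totals ranged from 5985335 to 14365864 counts. Mouse Adrb3 held 0 to 4 counts per library in WT and 0 to 3 in B3AR-Tg, so it checks no label, while Adgrb3 held 0 to 3 counts in WT libraries and 247 to 723 in B3AR-Tg libraries. Summed over 11 cardiomyocyte markers, libraries held 65211 to 91971 CPM in WT and 66689 to 104468 CPM in B3AR-Tg, on the scaled counts-per-million (CPM) scale. The 10 fibroblast markers summed to 82.5 to 255 CPM in WT and 28.8 to 108 CPM in B3AR-Tg. Of these, 9 passed the filter on low counts, while Tcf21, a defining one, held no more than 3 counts in any library. The 10 endothelial markers summed to 127 to 172 CPM in WT and 54.2 to 191 CPM in B3AR-Tg. Called lower in B3AR-Tg (edgeR adjusted p under 0.05) were 5 of 9 tested fibroblast and 4 of 10 endothelial markers, against 2.88% of all genes tested. The 9 mural cell markers summed to 366 to 557 CPM in WT and 500 to 657 CPM in B3AR-Tg, but most of that sum was Abcc9, which myocytes also express. Abcc9 was called higher in B3AR-Tg (log2 fold change 0.44, edgeR adjusted p = 0.0132). The 10 leukocyte markers summed to 0.971 to 12.1 CPM in all animals. Of these, 2 passed the filter, Csf1r and Lyz2, while Fcer1g, Tyrobp and Cd52 held no more than 3 counts anywhere.

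None of the 10 genes passed the test between genotypes. By edgeR's quasi-likelihood test, 0 of 10 had an adjusted p under 0.05, against 4.91% of the 10945 genes tested. Without adjustment 2 of 10, Prkar1a and Adcy6, had a p under 0.05, against 19.3% of all genes tested. DESeq2 called 1, Prkar1a, and limma voom, run with sample weights here and below, called 0. Over all 10945 genes tested, DESeq2 called 804 and limma voom 706. The WT and B3AR-Tg ranges overlapped for all 10, as they did for all but 0.448% of tested genes. The median log2 fold change of the 10 was 0.00, and that of all tested genes was 0.01. All 10 passed the filter on low counts. For 6 of them the 95% interval of the fold change lay between 0.869 and 1.19, and the wider intervals of Gnaq, Gnai3, Adcy6 and Prkar1a are given below. The background share rests on 537 called genes, which became 272 without WT replicate 4, 277 without B3AR-Tg replicate 5 and 345 without B3AR-Tg replicate 8.

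**Figure D1:**
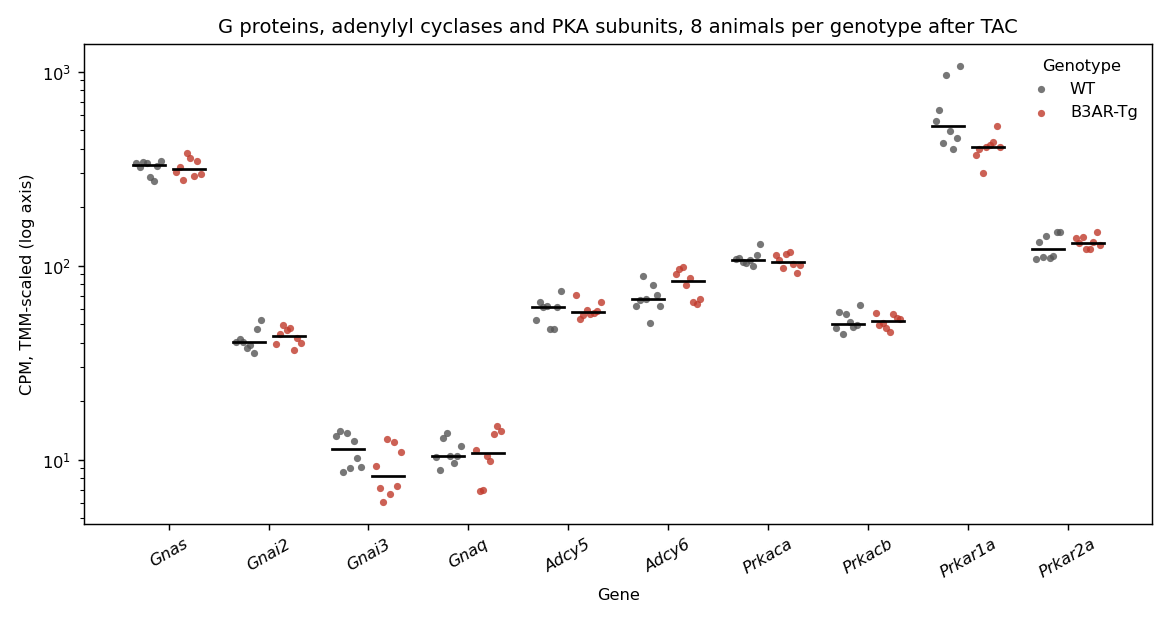
Scaled counts-per-million (log axis) of the 10 genes, 1 point per animal, with WT in grey, B3AR-Tg in red and a black line at each group's median of 8. The groups overlap for every gene, and Prkar1a in WT has the widest spread, from 399 to 1071 CPM.

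Among the G proteins, the message for Gs alpha was at a similar level in both genotypes. Gnas (ENSMUSG00000027523) ran from 272 through a median of 331 to 344 CPM in WT, and from 275 through 313 to 381 CPM in B3AR-Tg. Of the 8 B3AR-Tg animals, 5 were below the WT median, none below the lowest WT animal and 3 above the highest. The fold change was 1.00 with a 95% interval of 0.891 to 1.12 (edgeR adjusted p = 0.998). Gnas is an imprinted locus with several overlapping transcripts that gene-level counts do not separate.

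Gnai2 (ENSMUSG00000032562), the more abundant inhibitory alpha subunit, ran from 35.6 through 40.2 to 52.5 CPM in WT and from 36.9 through 43.3 to 49.2 CPM in B3AR-Tg. The B3AR-Tg values lay inside the WT range, with a fold change of 1.03 (95% interval 0.912 to 1.17, edgeR adjusted p = 0.807). Gnai3 (ENSMUSG00000000001), a second inhibitory alpha subunit, ran from 8.66 through 11.4 to 14.0 CPM in WT and from 6.05 through 8.28 to 12.8 CPM in B3AR-Tg. Its B3AR-Tg median was the lower, and 6 of 8 B3AR-Tg animals were under the WT median, but the difference of −0.33 on the log2 scale (standard error 0.17) did not pass (edgeR adjusted p = 0.285). Gnai3 counts were 58 to 165 per library, and the 95% interval of its fold change was 0.623 to 1.01. With the level of fibroblast, endothelial, mural and leukocyte markers as a covariate, the Gnai3 difference was −0.03. Gnaq (ENSMUSG00000024639), which drives phospholipase C, averaged 11.0 ± 1.68 CPM in WT against 11.0 ± 3.07 CPM in B3AR-Tg (mean ± SD, n = 8 each), a fold change of 0.999 with an interval of 0.796 to 1.26 (edgeR adjusted p = 0.9995). Gnaq spread more widely in B3AR-Tg, with 2 animals at 6.89 and 6.99 CPM below the WT range of 8.84 to 13.7 CPM and 2 at 14.0 and 14.9 CPM above it.

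Per kilobase of transcript, taken as the median length of the protein-coding transcripts of GENCODE M21, Gnas was the highest of the 16 G alpha genes at 107 ± 9.05 CPM per kb in WT (n = 8). Gna12 followed at 28.4 ± 3.69, Gnai2 at 23.5 ± 3.12, Gna13 at 11.7 ± 1.44, Gna11 at 5.75 ± 0.984, Gnai3 at 3.47 ± 0.695 and Gnaq at 1.95 ± 0.298 CPM per kb. Gna12 and Gnai2, neighbours in this order, did not differ beyond their spread. The length taken matters for genes with short annotated transcripts: Gnai2 could lie anywhere from 18.8 to 99.2 CPM per kb, Gna13 from 6.69 to 45.1 and Gnas from 81.4 to 440.1, so the order of Gnas and Gnai2, and that of Gna12, Gnai2 and Gna13, depends on the lengths taken. Below Gnaq, Gnao1 was at 1.36 ± 0.437 CPM per kb, with a spread that overlaps that of Gnaq, and Gnai1 was at 0.421 ± 0.149. The other 7 alpha genes (Gnal, Gnaz, Gna14, Gna15, Gnat1, Gnat2, Gnat3) did not pass the filter on low counts.

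Neither cardiac cyclase passed the test. Adcy5 (ENSMUSG00000022840) ran from 47.3 through 61.3 to 74.2 CPM in WT and from 52.9 through 57.6 to 70.4 CPM in B3AR-Tg, the transgenic range lying inside that of WT (fold change 1.01, 95% interval 0.880 to 1.15, edgeR adjusted p = 0.972). Adcy6 (ENSMUSG00000022994) ran from 50.9 through 67.1 to 88.3 CPM in WT and from 63.4 through 83.2 to 98.1 CPM in B3AR-Tg. For Adcy6, 6 of 8 B3AR-Tg animals were above the WT median, while B3AR-Tg replicates 6, 7 and 8 were at 65.3, 63.4 and 67.6 CPM, close to it. The Adcy6 difference of 0.24 on the log2 scale (standard error 0.11, fold interval 1.00 to 1.40) had an unadjusted p of 0.0455 by edgeR and an adjusted p of 0.250. It was 0.03 with the marker level of other cell types as a covariate.

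Of the remaining cyclases, Adcy9, which forskolin stimulates only weakly, averaged 19.4 ± 2.61 CPM in WT against 24.3 ± 3.43 CPM in B3AR-Tg. All 8 B3AR-Tg animals were above the WT median and 4 of them above the highest WT animal, yet its log2 difference of 0.32 missed the threshold (edgeR adjusted p = 0.0755), and of the alternatives tried it passed only without WT replicate 2 (adjusted p = 0.0490). Adcy1, a calcium- and calmodulin-stimulated cyclase, averaged 3.14 ± 0.941 CPM in WT against 1.68 ± 0.789 CPM in B3AR-Tg, on 8 to 42 counts per library, with 6 of 8 B3AR-Tg animals under the lowest WT animal. Its log2 difference of −0.88 (edgeR adjusted p = 0.0609) passed by DESeq2 (adjusted p = 0.0265), by limma voom (0.0288), and by edgeR without WT replicate 2 (0.0498) or B3AR-Tg replicate 7 (0.0148). Adcy4 differed by −0.69 (edgeR adjusted p = 0.260), and Adcy2, Adcy3, Adcy7, Adcy8 and Adcy10 did not pass the filter on low counts. Among these, Adcy8 averaged 0.421 ± 0.290 CPM in WT against 1.18 ± 0.784 CPM in B3AR-Tg. Adcy7 went the other way, at 1.12 ± 0.721 against 0.461 ± 0.376 CPM, and neither was tested in the main fit. Per kilobase in WT, Adcy6 was highest at 14.0 ± 2.33 CPM per kb, then Adcy5 at 8.39 ± 1.32 and Adcy9 at 4.31 ± 0.580, each apart from its neighbour by more than the spread, followed by Adcy4 at 0.553 ± 0.280 and Adcy1 at 0.256 ± 0.0768, whose spreads overlap.

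Neither PKA catalytic subunit passed the test. Prkaca (ENSMUSG00000005469) ran from 99.7 through 107 to 129 CPM in WT and from 91.4 through 105 to 117 CPM in B3AR-Tg, overlapping over most of both ranges (fold change 0.964, 95% interval 0.869 to 1.07, edgeR adjusted p = 0.742). Prkacb (ENSMUSG00000005034) averaged 52.3 ± 6.16 CPM in WT against 51.8 ± 4.08 CPM in B3AR-Tg (n = 8 each), a fold change of 0.991 with an interval of 0.883 to 1.11 (edgeR adjusted p = 0.956). The regulatory subunit Prkar2a (ENSMUSG00000032601), the RII alpha chain that anchoring proteins hold near its targets, ran from 107.6 through 122 to 149 CPM in WT and from 122 through 131 to 150 CPM in B3AR-Tg. Of its B3AR-Tg animals 6 of 8 lay above the WT median and 1 above the WT range, and the fold change of 1.05 (interval 0.929 to 1.19) did not pass (edgeR adjusted p = 0.691).

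Prkar1a (ENSMUSG00000020612), the RI alpha chain that holds PKA inactive until cAMP binds, came nearest to a call. It ran from 399 through a median of 524 to 1071 CPM in WT and from 301 through 407 to 526 CPM in B3AR-Tg. High values belonged to WT: 4 of 8 WT animals were above every B3AR-Tg animal, and 7 of 8 B3AR-Tg animals were below the WT median, while 2 were below the lowest WT animal. The mean was 625 ± 254 CPM in WT against 408 ± 62.9 CPM in B3AR-Tg, so the log2 difference was −0.61 (standard error 0.18) and the fold change 0.653 (95% interval 0.502 to 0.849). The edgeR p was 0.00286 before and 0.0550 after adjustment, just on the uncalled side of the threshold. In WT its coefficient of variation, 40.6%, was the largest of the 10 genes, the next being Gnai3 at 20.04%, against 15.4% for Prkar1a in B3AR-Tg.

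Which side of the threshold Prkar1a fell on depended on single choices. Over the 25 alternatives its log2 difference lay between −0.69 and −0.42, and it passed in 6. DESeq2 gave an adjusted p of 0.0149, and edgeR gave 0.0319 without WT replicate 6, 0.0326 without WT replicate 3, 0.0395 without B3AR-Tg replicate 7, 0.0426 without WT replicate 7 and 0.0499 without WT replicate 5. The difference was −0.46 without WT replicate 8 (adjusted p = 0.112) and −0.50 without WT replicate 4 (adjusted p = 0.132), the animals with the highest values. With the marker level of other cell types as a covariate it was −0.46 (adjusted p = 0.453). Several of these markers differed between genotypes themselves, so this fit cannot fully separate their level from genotype. In RNA from a preparation of many cells, fewer cells of a type and less RNA per cell cannot be told apart, and the part of the marker level in the Prkar1a difference was not tested further.

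The promoters of the PKA subunits are shown because cAMP acts on transcription through the cAMP response element, whose full form is TGACGTCA and whose short form, contained in it, is TGACG. Both were searched on both strands of RefSeq promoter windows (GRCm38.p6, 250 bases before to 50 after each start), which were found for 8 of the 10 genes, in 19 windows, not for Gnai2 and Adcy6. Of these 8, Prkar1a held the full form, in 2 overlapping windows of its 6, and the other 7 did not; 2.03% of the 27025 genes with a window held it. The short form was found in 6 of the 8 genes, against 23.0% of all genes, and genes with several windows, such as Prkar1a, have more bases in which to match. Capitals mark the full form in Prkar1a and a short form, read on the opposite strand, in the other 3.
Prkar1a, chr11:109650890-109650917, plus strand: cgaggcgcatTGACGTCAgcagccgaac
Prkar2a, chr9:108692129-108692153, plus strand: cggccgcgtgCGTCAcaacccgggc
Prkaca, chr8:83972848-83972872, plus strand: ctgcaactcgCGTCActcatccagg
Prkacb, chr3:146813034-146813058, minus strand: ggcttgaccgCGTCActtccggcgc
These matches are letters in a reference sequence and were not measured as binding sites in these cells.

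**Figure D2:**
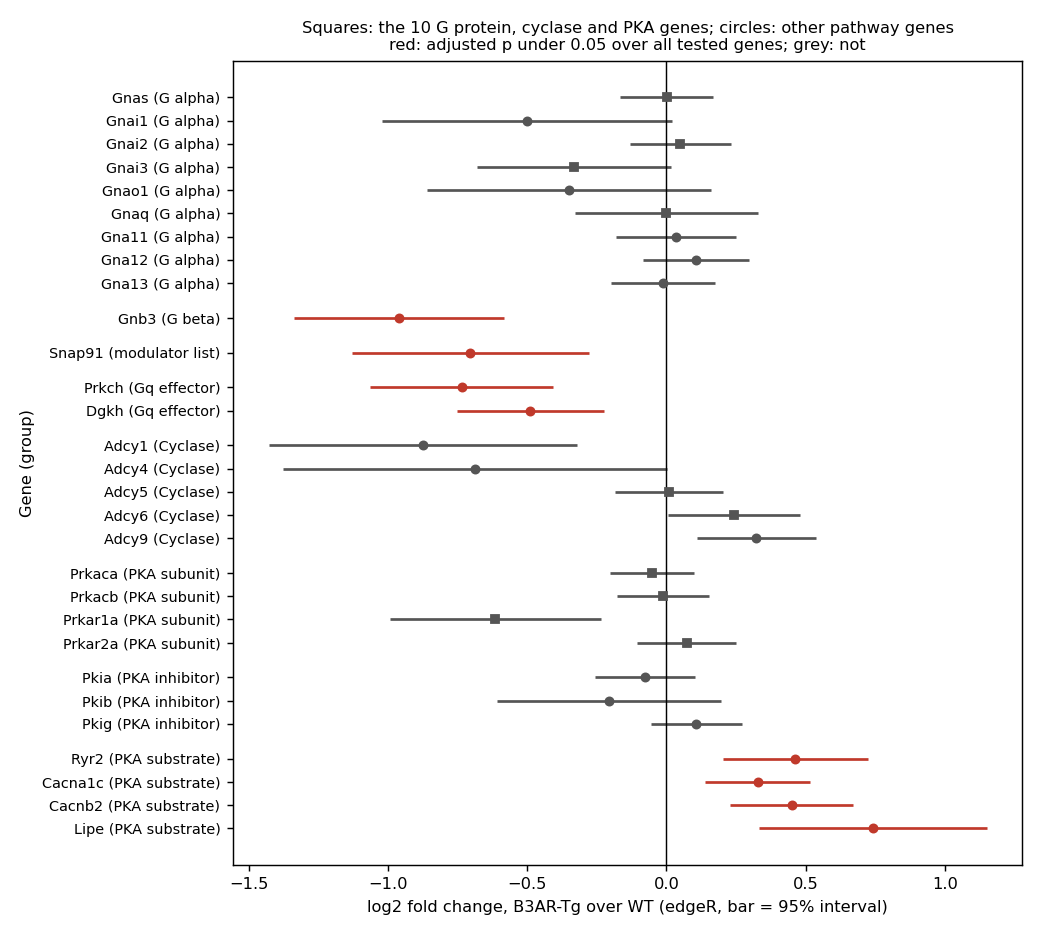
The log2 fold change of B3AR-Tg over WT with its 95% interval (edgeR, 8 animals per genotype) for the 10 genes (squares) and for other genes of the pathway (circles), with red where the adjusted p was under 0.05. All 10 squares are grey, Prkar1a at −0.61 lies farthest from 0 among them, and the 8 red circles are Gnb3, Snap91, Prkch and Dgkh below 0 and Ryr2, Cacna1c, Cacnb2 and Lipe above it.

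Pairs of genes with related roles were also compared as ratios of their counts inside each library, which need no scaling factor. Of 5 ratios, 1 differed between genotypes. The count ratio of Prkar2a to Prkar1a ran from 0.139 through a median of 0.216 to 0.327 in WT and from 0.284 through 0.309 to 0.469 in B3AR-Tg. All 8 B3AR-Tg animals were above the WT median, 2 of them above every WT animal. On the log2 scale the means were −2.23 ± 0.431 and −1.61 ± 0.242 (SD, n = 8 each), so the ratio was 1.54-fold higher in B3AR-Tg (two-sided exact permutation p = 0.00249, adjusted over the 5 ratios 0.0124). Leaving out each animal in turn kept the log2 difference between 0.53 and 0.71 and the adjusted p at or under 0.0319. With same-numbered animals taken as pairs the adjusted p was 0.117, although the labels do not say that animals with the same number are related. Alone, Prkar1a differed by −0.61 and Prkar2a by 0.07 on the log2 scale, so this ratio largely restates the Prkar1a difference. That difference was not called when adjusted over all 10945 genes (edgeR adjusted p = 0.0550), whereas the ratio was adjusted over only 5.

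The other 4 ratios did not pass. Adcy6 to Adcy5 was 1.16-fold higher in B3AR-Tg (adjusted exact permutation p = 0.287) and Gnai3 to Gnai2 was 0.756-fold as high (adjusted exact permutation p = 0.268), with 7 of 8 B3AR-Tg animals under the WT median. Gnai2 to Gnas and Prkacb to Prkaca differed by 0.06 and 0.04 on the log2 scale, both with an adjusted exact permutation p of 0.606.

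**Figure D3:**
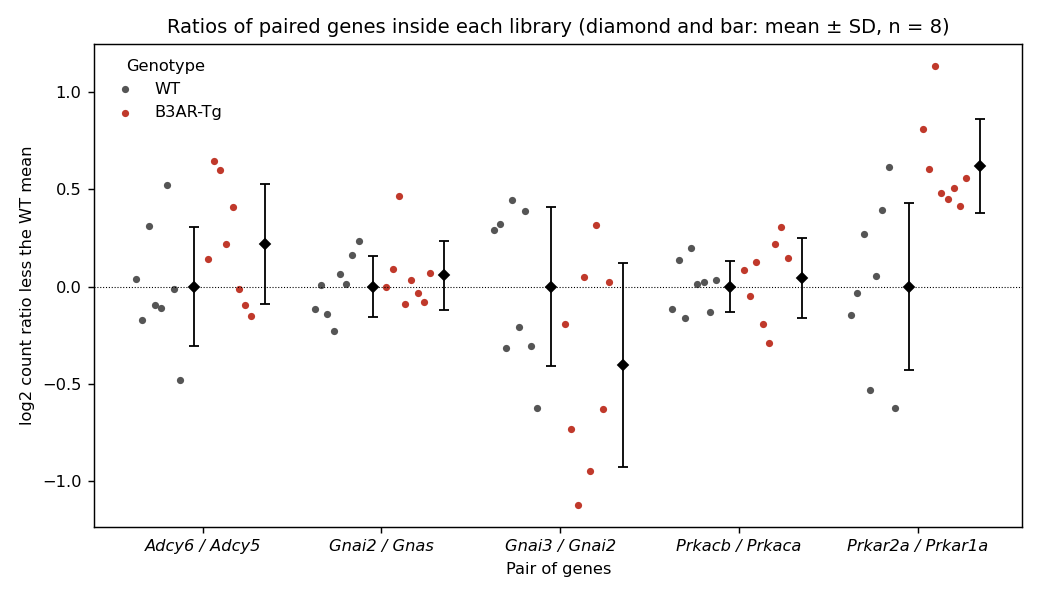
The log2 ratio of the counts of paired genes inside each library, less the WT mean of that ratio, 1 point per animal (WT grey, B3AR-Tg red), with a diamond and bar for mean ± SD (n = 8). The B3AR-Tg animals sit above the WT mean by 0.62 on average for Prkar2a over Prkar1a, and the groups are mixed for the other 4 ratios.

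Per kilobase, Prkar1a was the most abundant PKA message at 186 ± 75.6 CPM per kb in WT and 121 ± 18.7 in B3AR-Tg (n = 8 each). Prkaca followed at 59.5 ± 4.89 and 57.4 ± 5.02, Prkar2a at 41.4 ± 5.97 and 43.5 ± 3.19, and Prkacb at 13.0 ± 1.53 and 12.9 ± 1.01 CPM per kb. Prkaca and Prkar2a change places with the transcript length taken, since Prkar2a could lie anywhere from 25.5 to 110.6 CPM per kb in WT. On the same scale, Prkar1a made up 80.6% ± 4.56 of the regulatory message (Prkar1a plus Prkar2a) in WT and 73.3% ± 3.42 in B3AR-Tg. Regulatory message exceeded catalytic message by a factor of 3.10 ± 0.907 in WT and 2.37 ± 0.391 in B3AR-Tg, values that describe RNA and depend on the lengths taken. Prkar1b and Prkar2b, regulatory chains best known from neurons and endocrine or fat tissue, did not pass the filter, with at most 8 and 5 counts in a library.

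The high Prkar1a values of WT were found in animals with much Nppa, the natriuretic peptide gene that rises with load on the heart. In order of rising Nppa, WT replicates 6, 3, 5, 7 and 1 held 78.4, 109, 124, 196 and 330 CPM of Nppa and 399, 431, 493, 454 and 556 CPM of Prkar1a. WT replicates 4, 2 and 8 held 1076, 1240 and 1349 CPM of Nppa and 959, 634 and 1071 CPM of Prkar1a. No WT animal with less Nppa than these 3 had as much Prkar1a as any of them. Myh7, another load-responsive gene, showed a gap at the same place, from 1418 CPM in replicate 3 to 4271 CPM in replicate 8. Because WT animals thus lay on either side of a gap, 5 below and 3 above, no correlation was computed over them. Prkacb, in the same order of animals, was at 48.4, 44.5, 51.3, 49.3, 47.7, 56.6, 57.4 and 63.0 CPM, and Adcy5 was at 47.4, 61.3, 47.3, 61.2, 52.2, 62.0, 64.9 and 74.2 CPM. Both followed this order only in part. Both were highest in replicate 8, but so were Gnas, Gnai2, Prkaca, Prkar1a and Prkar2a among WT animals. These were at 344, 52.5, 129, 1071 and 149 CPM there, so a peak in that library was not particular to Prkacb and Adcy5. Adcy6 did not follow this order: its highest WT values were 88.3 and 79.0 CPM in replicates 3 and 6, which had the least Nppa.

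Between genotypes, Nppa and Myh7 were themselves called lower in B3AR-Tg (log2 fold change −3.99 and −2.03, edgeR adjusted p = 0.00362 and 0.00632). In the comparison of Prkar1a between genotypes, the level of these load genes and the genotype therefore cannot be told apart. Among B3AR-Tg animals Nppa ran from 5.76 to 120.3 CPM. Prkar1a was highest in the animal with the most Nppa, replicate 7, at 526 CPM, and lowest in the animal with the next most, replicate 3, at 301 CPM. Over the 8 B3AR-Tg animals none of the 10 genes was related to Nppa after adjustment over 10 relations. By Pearson's r over all 8 animals Prkaca was farthest from 0 (r = −0.68, exact permutation p = 0.0542, adjusted 0.542; Spearman rho = −0.40, exact permutation p = 0.327, adjusted 0.774), and without the 2 animals farthest from the median of Nppa its r was −0.28. The order of the genes depended on the measure, since Gnai2 (rho = 0.62, exact permutation p = 0.115, adjusted 0.774) and Adcy5 (rho = −0.50, exact permutation p = 0.216, adjusted 0.774) were farther from 0 by Spearman's rho. For Prkar1a, r was 0.32 (exact permutation p = 0.430, adjusted 0.717) and rho was 0.21 (exact permutation p = 0.619, adjusted 0.774). Its r without those 2 animals was −0.89, so its sign rests on them. Among the animals left, replicate 3 stood apart at 50.3 CPM of Nppa and 301 CPM of Prkar1a. The others lay at 15.3 to 24.4 CPM of Nppa and 400 to 433 CPM of Prkar1a, and r without replicate 3 as well was not computed.

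**Figure D4:**
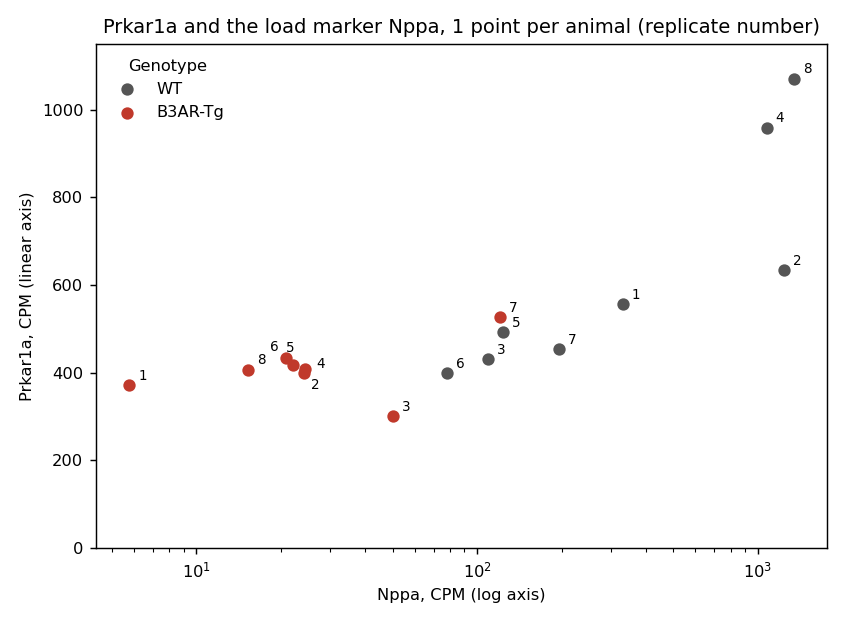
Prkar1a (linear axis) against Nppa (log axis), both in scaled counts-per-million, 1 point per animal with its replicate number, WT in grey and B3AR-Tg in red. WT replicates 2, 4 and 8, with 1076 CPM of Nppa or more, have the highest Prkar1a, while B3AR-Tg animals lie between 301 and 526 CPM of Prkar1a.

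The genes whose levels followed Prkar1a most closely from animal to animal, once each genotype's mean was removed, were Parp4 (Pearson r = 0.94 over 16 animals), Tmbim1 (r = 0.91) and Nabp1 (r = 0.90). These are descriptions of the top of a ranking and carry no p, and the 3 WT animals with much Nppa are among the points. Within B3AR-Tg alone, r was 0.97 for Parp4, 0.56 for Tmbim1 and 0.82 for Nabp1 (n = 8). Nabp1, which encodes a single-stranded DNA-binding protein, fell from 162 to 95.3 CPM (log2 fold change −0.76, edgeR adjusted p = 0.0182), while Parp4 at −0.40 (adjusted p = 0.135) and Tmbim1 at −0.32 (adjusted p = 0.259) did not pass.

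Around these 10 genes, 128 others of the pathway were listed and 94 could be tested, of which 8 (8.51%) passed over all genes (edgeR), against 4.91% of all genes tested. In B3AR-Tg 4 of the 8 were higher and 4 lower, while over all genes tested 2.03% were called higher and 2.88% lower. The lists were chosen with earlier results of these data known, so shares of called genes here and below are descriptions and test nothing about the lists. Gnb3, a G protein beta subunit, ran from 7.96 through 14.4 to 16.3 CPM in WT and from 4.34 through 6.25 to 10.5 CPM in B3AR-Tg. All 8 B3AR-Tg animals lay below the WT median and 6 below the lowest WT animal, and the log2 fold change was −0.96 (standard error 0.18, edgeR adjusted p = 0.00582). It was the only one called of 10 tested beta and gamma subunits, of which 7 had negative log2 fold changes (median −0.05).

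On the Gq side, 2 of 14 tested effectors fell (14.3%, against 2.88% over all genes tested) and 0 rose (median log2 fold change −0.09). DESeq2 and limma voom each called 3 lower, against 486 and 397 called lower of all 10945 genes tested. Prkch, protein kinase C eta, fell from 6.80 ± 1.10 to 4.10 ± 0.946 CPM (log2 fold change −0.74, edgeR adjusted p = 0.0125), and all 8 B3AR-Tg animals lay below all 8 WT animals. Dgkh, a kinase that removes the phospholipase C product diacylglycerol, fell from 9.60 ± 1.31 to 6.87 ± 1.20 CPM (−0.49, edgeR adjusted p = 0.0289). Of 10 tested genes listed as G alpha chaperones and modulators, 1 fell, Snap91 (−0.71, edgeR adjusted p = 0.0498), which is known as a clathrin coat assembly protein rather than as a G protein modulator. DESeq2 called 1 of this list, Snap91, and limma voom called 0. Over the 25 alternatives Snap91 passed in 9, and among those in which it did not were library totals as scaling, no filter on low counts and leaving out the mitochondrially encoded genes and Gm20594 (adjusted p = 0.0935, 0.0635 and 0.0508).

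Among PKA substrates, phosphatases and cAMP-responsive factors, 4 of 27 tested genes rose (14.8%, against 2.03% called higher over all genes tested) and 0 fell, against 2.88% called lower. The median log2 fold change of the 27 was 0.12, and that of all genes tested 0.01. DESeq2 called 4 of the 27 higher and limma voom 5, against 318 and 309 called higher of all 10945 genes tested. Lipe, the hormone-sensitive lipase that PKA activates, rose from 8.71 ± 2.66 to 14.5 ± 4.29 CPM (0.74, edgeR adjusted p = 0.0329). Cacna1c, the pore of the L-type calcium channel, rose from 293 ± 28.1 to 367 ± 50.9 CPM (0.33, edgeR adjusted p = 0.0394), and its subunit Cacnb2 and the release channel Ryr2 rose by 0.45 and 0.46 (edgeR adjusted p = 0.0191 and 0.0359). None of the 14 tested A-kinase anchoring proteins passed (median 0.09), and DESeq2 called 0 and limma voom 1, Cmya5, higher. None of the 8 other cAMP effectors passed (median −0.13), and DESeq2 and limma voom called 0. By edgeR, 4 of the 14 and 1 of the 8 had an unadjusted p under 0.05, against 19.3% of all genes tested. The PKA inhibitor peptides were at 263 ± 33.4 and 249 ± 25.8 CPM for Pkia, 3.33 ± 0.866 and 2.86 ± 0.700 CPM for Pkib, and 80.1 ± 8.88 and 86.3 ± 7.13 CPM for Pkig in WT and B3AR-Tg, with edgeR adjusted p-values from 0.484 to 0.676. Of the 5 other tested G alpha genes, Gnai1 differed by −0.50, Gnao1 by −0.35, Gna11 by 0.04, Gna12 by 0.11 and Gna13 by −0.01, with edgeR adjusted p-values from 0.278 to 0.965.

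Of the 8 called genes, Gnb3, Prkch and Cacnb2 passed whichever single animal was left out. Dgkh, Lipe, Ryr2, Snap91 and Cacna1c each lost the call without WT replicate 4, WT replicate 8 or B3AR-Tg replicate 5. Dgkh also lost it without WT replicate 2 or B3AR-Tg replicate 2 or 8 (adjusted p up to 0.0685), and Lipe without WT replicate 1 or B3AR-Tg replicate 2 or 8 (up to 0.0801). Ryr2 also lost it without WT replicate 1 or 2 or B3AR-Tg replicate 1, 4 or 8 (up to 0.0830), and Snap91 without WT replicate 1 or 2 or B3AR-Tg replicate 1, 2, 3, 4 or 6 (up to 0.113). Cacna1c also lost it without WT replicate 1, 5 or 6 or B3AR-Tg replicate 1, 2, 4, 7 or 8 (up to 0.0839). Since several markers of other cell types were themselves called between genotypes, a fit with their level as a covariate cannot fully separate that level from genotype. With this marker level as a covariate, none of the 8 passed (adjusted p from 0.155 to 0.613), but their log2 fold changes did not all shrink. That of Ryr2 was 0.60 in place of 0.46 and that of Cacna1c 0.39 in place of 0.33. Those of the other 6 were closer to 0, at −0.79 for Gnb3, −0.29 for Prkch, −0.29 for Dgkh, −0.36 for Snap91, 0.31 for Cacnb2 and 0.53 for Lipe.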

How the data were processed

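RNA was profiled by stranded, ribosome-depleted total RNA sequencing in 16 mice, per the labels' protocols. The authors deposited 1 table of whole-number counts per gene and animal, with no normalization. The submitters' processing notes name Salmon and GRCm39, and how the whole numbers were obtained, the annotation and the strand setting are not given in the sources used here.

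Genotype and replicate number came from the labels. The genotypes were compared with edgeR 4.0.16 (quasi-likelihood F test, TMM scaling, R 4.3.3) on all 10945 genes that passed filterByExpr (minimum count 10, minimum total 15). P-values were adjusted by Benjamini-Hochberg over all of them, with a threshold of 0.05. Standard errors are the log2 fold change over the square root of F. Printed CPM values are counts-per-million of TMM-scaled library size. A floor of 3 counts is 0.201 to 0.487 CPM. Count ratios were compared by exact permutation over 12870 splits (scipy 1.17.1). Relations to Nppa were planned in both genotypes but computed in B3AR-Tg only, since WT fell on both sides of a gap. Transcript lengths came from GENCODE M21, and promoter sequences from RefSeq, both on GRCm38. The coordinates printed with the promoter sequences are therefore on GRCm38, not on the GRCm39 build that the processing notes name. Alternatives were DESeq2 1.42.0, limma 3.58.1 (voom with sample weights), other scalings, a replicate block and leaving out each animal. A covariate, the mean log2 CPM of the tested fibroblast, endothelial, mural and leukocyte markers, was another alternative. The code was tested on simulated data.

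The 10 genes and all lists were chosen with earlier results of these data known. All 10 genes are named, as are all tested G alpha, cyclase, PKA subunit and inhibitor genes, up to 4 called genes with the smallest p from each other list, and the 3 genes most like the one of the 10 nearest to a call. Akap2 and Phlp matched no row. Cmya5, of the anchoring protein list, is named outside this rule, after its value was seen, as are Nppa, Myh7 and Adgrb3.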

Additional observations from a re-analysis of the deposited data

Results flagged for a closer look

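In 2 of 68 sets of 8 animals searched, 1 animal stood apart from the other 7 by a larger part of the whole range than Dixon's 95% critical value for 8. Chance alone would give about 3.4 such sets. Gna13, a G alpha subunit, was highest in B3AR-Tg replicate 1, and the gap to the next animal made up 0.569 of the range on the log2 CPM scale. The log2 count ratio of Gnai2 to Gnas was highest in B3AR-Tg replicate 3, at a gap of 0.672 of the range. Neither value took part in a difference between genotypes that passed its test.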

How the results depend on the processing

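Depth limits the low genes: Adcy1 rests on 8 to 42 counts per library, and a gene under the floor of 3 counts cannot be told from 0. The number of genes called, 537, became 10 with the marker level of other cell types as a covariate and 230 with the replicate block, and lay between 272 and 675 when each animal was left out. That covariate is not independent of genotype, since 5 of 9 tested fibroblast and 4 of 10 endothelial markers were called lower in B3AR-Tg. With library totals only as scaling, 346 genes were called higher and 165 lower, in place of 222 and 315. Of the 10 genes described, 1, Prkar1a, was called by DESeq2, which called 804 of all genes tested. When each animal was left out, 0 to 1 of the 10 were called. Under the marker covariate the log2 fold changes of Gnaq, Prkacb and Gnao1, none of them called, turned to 0.33, 0.067 and 0.24, and that of Prkaca was 0.025 with library totals only. The cause was not tested. Over the 25 alternatives, Gnai2, Gnai3, Adcy6, Prkar1a and Prkar2a kept their sign. With the replicate block the log2 difference of the Prkar2a to Prkar1a ratio was 0.62 with an adjusted p of 0.117, and the calls of Gnb3, Prkch and Cacnb2 held. Same-numbered animals deviated together with r from −0.219 to 0.0935, and 0 of 8 correlated best with its own number. Such correlations over all genes cannot tell whether same-numbered animals shared a litter or a day of processing, which the labels do not give.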
